A study of Mus musculus with 8 samples.

Results

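The genes described here are 10 transcription factors that mark tanycytes and the developing ventral forebrain: Rax, Lhx2, Six3, Six6, Vax1, Nkx2-1, Sox2, Sox9, Fezf2 and Tbx3. They were taken by symbol from a list that was chosen with earlier results of these data known. All 10 were found in a single-cell table, where 18181 genes had a UMI, and among the 55450 genes of a bulk table. A UMI (unique molecular identifier) is a tag that counts each captured transcript once. In single cells 9 of the 10 had at least 1 UMI, and in bulk all 10 passed the filter on low counts.

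Tanycytes are elongated glial cells that line the floor of the third ventricle and send a process to the blood vessels of the median eminence (ME). Transcription factors of the homeobox, SOX, T-box and zinc finger families set up the ventral forebrain in the embryo, and several of them stay on in adult tanycytes. Rax, Lhx2, Six3, Six6, Vax1 and Nkx2-1 are homeobox genes of the eye field and hypothalamus. Sox2 and Sox9 act in neural progenitors and glia, Sox2 also in oligodendrocyte precursor cells (OPCs). Fezf2 and Tbx3 act in forebrain and tuberal hypothalamic neurons, among other cells.

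For single cells, the ME of 10 wild-type C57BL/6 females aged 2 months was dissociated with papain and run as a single 10x library of 990 cells. For bulk RNA, ME tissue came from 3 control mice, wild type in the labels, and from 4 Rax-CreERT2::BrafV600E mutants, dissected 2 months after tamoxifen. The study describes the mutant tissue as tumor that resembles papillary craniopharyngioma. In the mutants, CreERT2 is expressed from the Rax locus and switches on oncogenic Braf in cells that express Rax, so that Rax itself is read from a modified locus. Age was 2 months and strain C57BL/6 in all bulk labels, and whether the controls carried CreERT2 is not given in the sources used here. The study's methods give 2 months after tamoxifen as the time of dissection for both groups, without saying whether the controls were injected, and give adult mice for the injections, which does not go together with the labelled age of 2 months. They give the strain as C57BL/6N.

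Bulk libraries held 4928456 to 13816596 counts. Control 2, control 3 and mutant 1 stood apart by their number of detected genes (17874 to 25910, against 34942 to 40852 in the other 4 libraries), which runs opposite to their depth. Each member's bulk log2 fold change is given with them and, where a fit could be made, without all 3, which leaves 1 control whose spread is taken from the mutants. Braf was at 13.0 to 33.8 CPM (counts per 1e6 library counts) in controls and at 13.9 to 28.4 CPM in mutants, a gene count that does not separate the mutant allele from the normal one. The tanycyte marker Scn7a was found in every bulk library, at 79.0 CPM or more. Summed pituitary hormone markers ranged from 706 to 15251 CPM in controls and from 970 to 20158 CPM in mutants.

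Six3 and Six6, closely related homeobox genes, and Sox2 each have the letters TGATTGGC in the 250 bases before a RefSeq start site, and these windows are shown because Six3 and Six6 were also each other's closest match over cell clusters (r = 0.985). The build is GRCm38.p6, all 3 genes lie on the plus strand, and capitals mark CCAAT or its reverse complement ATTGG. The windows are chr17:85620584-85620833 for Six3, chr12:72939632-72939881 for Six6 and chr3:34649745-34649994 for Sox2.
Six3: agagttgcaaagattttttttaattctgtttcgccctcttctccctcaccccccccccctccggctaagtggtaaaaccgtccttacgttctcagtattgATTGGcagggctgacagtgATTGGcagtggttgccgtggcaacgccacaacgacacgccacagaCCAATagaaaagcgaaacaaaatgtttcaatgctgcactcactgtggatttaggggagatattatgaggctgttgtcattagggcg
Six6: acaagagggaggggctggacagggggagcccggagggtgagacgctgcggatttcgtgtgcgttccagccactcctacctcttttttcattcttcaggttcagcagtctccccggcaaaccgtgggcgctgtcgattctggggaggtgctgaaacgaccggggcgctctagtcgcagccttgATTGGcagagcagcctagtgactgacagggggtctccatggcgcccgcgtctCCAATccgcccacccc
Sox2: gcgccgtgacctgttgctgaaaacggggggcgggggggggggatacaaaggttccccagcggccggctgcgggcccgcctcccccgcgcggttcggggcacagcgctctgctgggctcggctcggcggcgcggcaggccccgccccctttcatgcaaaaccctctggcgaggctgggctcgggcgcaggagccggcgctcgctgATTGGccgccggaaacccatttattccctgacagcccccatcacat

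On both strands, TGATTGGC (which contains ATTGG) was found in 3 of the 8 windows read, those of 7 members. It was in 3.55% of all 32851 windows of this length. The windows read leave out Rax, on chromosome 18, while the share over all windows does not leave out that chromosome. It starts 152 and 133 bases before the start site of Six3, 70 bases before that of Six6 and 48 bases before that of Sox2. These 8 letters were chosen after the windows had been read. CCAAT was in 4 of the 8 windows (Vax1 being the other gene) and in 33.8% of all windows. ACAAT, a core of SOX motifs, was in 2 of 8, those of Vax1 and Nkx2-1, and in 27.7% of all. TAATTA, a core of homeobox motifs, was in 0 of 8 and in 4.84% of all.

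Clusters of cells were built without the members, so that no member shaped the groups it is compared over. Graph clustering on 20 principal components (resolution 0.8) gave 11 clusters, and a cluster was taken as tanycytes where Scn7a and Col25a1 were both at least 3 times as high as in all other cells. The only such cluster held 179 cells, with Scn7a at 1929 CPM of summed UMIs and Col25a1 at 1294 CPM. It had 9 of 11 tanycyte markers at that ratio or above, and also 3 of 6 astrocyte markers. Scn7a and Col25a1 are among those 11 and passed by the rule itself. An ependymal-like cluster of 45 cells, with 6 of 7 ependymal markers and 5 of 11 tanycyte markers, held Scn7a at 670 CPM and Col25a1 at 749 CPM and fell short of the rule. As all cells came from 1 library of pooled mice, no test was run between clusters, and the intervals given are exact Poisson 95% intervals of the summed UMIs, for counting error only.

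The 9 members with UMIs were all at least 4 times as high in tanycyte-like cells as in all other cells, and 5.55% of the 18181 genes with a UMI reached a ratio of 3 (with 1 CPM added to both). Their ratios ran from 4.09 for Sox2 to 15.9 for Fezf2. The tanycyte-like cluster was the highest of the 11 for 6 members, the ependymal-like cluster for Rax and Six6, and the OPC-like cluster for Sox2. For 3 members, Nkx2-1, Sox9 and Tbx3, the interval in tanycyte-like cells lay above that of the next highest cluster. With the ependymal-like cluster counted among the tanycytes, an alternative added after seeing the data, this held for 8 of the 10. With cells thinned to 3000 UMIs it held for 1, Tbx3. With tanycytes chosen by at least 3 UMIs of Scn7a and of Col25a1 per cell it held for 0. That rule took 175 of the 179 tanycyte-like and 23 of the 45 ependymal-like cells. The cells it left behind stayed as clusters to compare with, the few tanycyte-like ones with a wide interval. Its 0 therefore says little about the members.

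**Figure D1:**
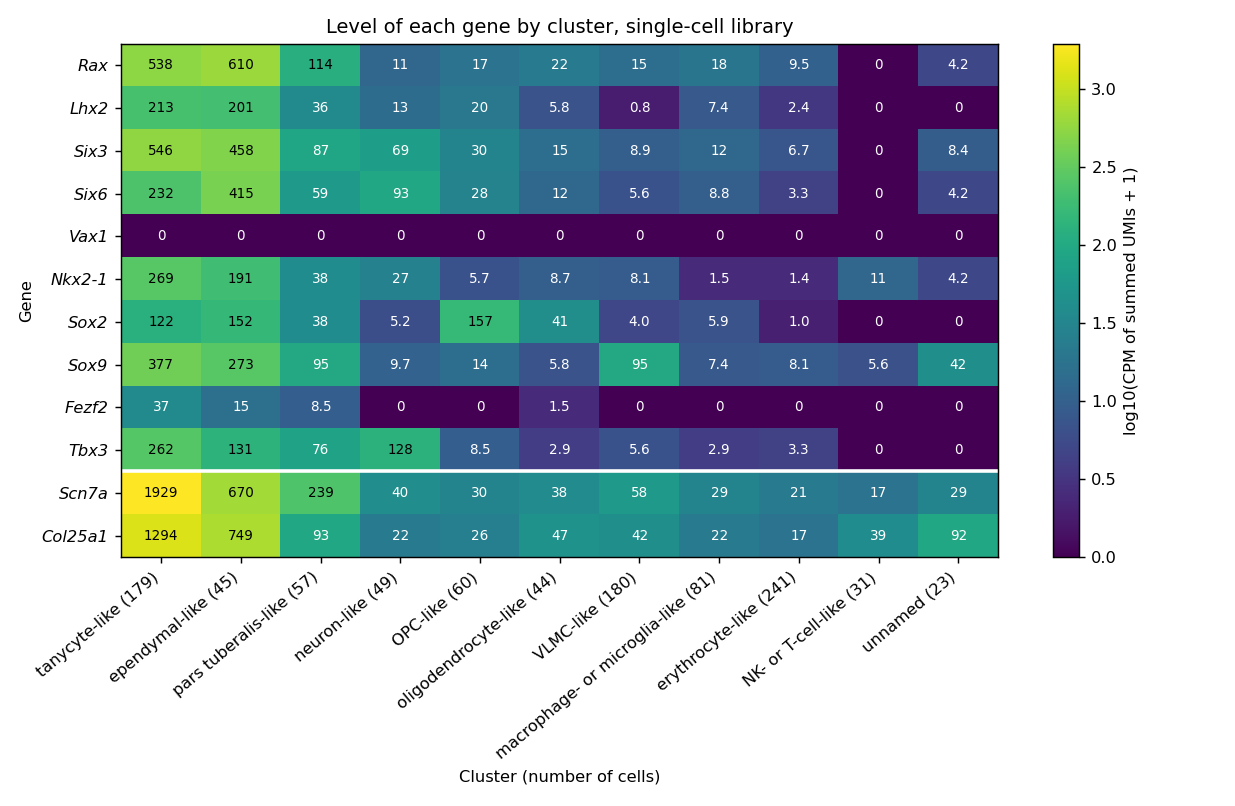
Level of the 10 members and of the 2 genes that set the tanycytes (rows) in each of 11 cell clusters (columns, with cell numbers), as CPM of summed UMIs (printed) on a log10(CPM + 1) colour scale. The tanycyte-like and ependymal-like columns are the brightest for 8 members, while Sox2 is as bright in OPC-like cells, at 157 CPM, and Vax1 is at 0 throughout.

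Rax, the homeobox gene whose locus drives CreERT2 in the mutants, was at 538 CPM (504 to 572) in tanycyte-like cells. In ependymal-like cells it was at 610 CPM (535 to 693), an interval that overlaps the former. The pars tuberalis-like cluster, secretory cells of the pituitary stalk, followed at 114 CPM (85.8 to 149), and the other 8 clusters were at 21.9 CPM or less. Of all 1363 Rax UMIs, 71.8% lay in tanycyte-like cells and 89.2% in tanycyte-like and ependymal-like cells together. Rax was found in 94.97% of tanycyte-like cells (90.7 to 97.7, Clopper-Pearson) with a median of 7892 UMIs, and in 7.88% of erythrocyte-like cells with a median of 7747 UMIs, which should lack it.

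Lhx2, a LIM homeobox gene, was at 213 CPM (192 to 235) in tanycyte-like and at 201 CPM (159 to 251) in ependymal-like cells, levels that the depth does not separate. It was found in 81.0% of tanycyte-like cells and in 2.07% of erythrocyte-like cells. Outside these 2 clusters it reached 35.9 CPM, in the pars tuberalis-like cluster, and 19.9 CPM in OPC-like cells.

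Six3 and Six6, close relatives, ranked the 2 leading clusters in opposite orders. Six3 was at 546 CPM (513 to 581) in tanycyte-like cells and at 458 CPM (394 to 531) in ependymal-like cells, with overlapping intervals. Six6 was at 232 CPM (210 to 255) in tanycyte-like cells and at 415 CPM (353 to 484) in ependymal-like cells, and these intervals lay apart. Both were also present in neuron-like cells, Six3 at 68.8 CPM and Six6 at 93.5 CPM, where each gene was found in 71.4% of cells at a median of 31422 UMIs. At an equal depth of 3000 UMIs per cell, these shares were 18.4% for Six3 and 16.3% for Six6 in neuron-like cells, and 1.24% and 0.830% in erythrocyte-like cells.

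Vax1, a homeobox gene of the optic stalk and ventral forebrain, had 0 UMIs in the library. With 3 counts as the limit that 0 allows, it was below 0.305 CPM over all cells and below 1.647 CPM in tanycyte-like cells, or under 1.68% of tanycyte-like cells with a UMI. This limits what 3′ counting at this depth detected.

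Nkx2-1, which patterns the ventral hypothalamus, was at 269 CPM (245 to 293) in tanycyte-like cells and at 191 CPM (149.6 to 239) in ependymal-like cells. It was found in 86.6% and 64.4% of their cells, against 1.24% of erythrocyte-like cells. Tbx3, a T-box gene of tuberal hypothalamus, was at 262 CPM (239 to 287) in tanycyte-like cells, and at nearly equal levels in ependymal-like cells (131 CPM, 97.8 to 173) and neuron-like cells (128 CPM, 109 to 149). At 3000 UMIs per cell, 52.5% of tanycyte-like, 35.6% of ependymal-like and 30.6% of neuron-like cells had a Tbx3 UMI. In erythrocyte-like cells the share was 0.415%.

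Sox2 differed from the other members in its highest cluster. It was at 157 CPM (129.5 to 189.6) in OPC-like cells, 152 CPM (116 to 196) in ependymal-like cells and 122 CPM (107 to 139.6) in tanycyte-like cells, and these 3 intervals overlap. Oligodendrocyte-like cells carried 40.8 CPM (27.1 to 59.0). Of all Sox2 UMIs 48.8% lay in tanycyte-like cells, the smallest share among the 9 members. OPC-like cells held 111 UMIs, ependymal-like cells 59 and oligodendrocyte-like cells 28. Sox9, a regulator of glial fate, was at 377 CPM (350 to 407) in tanycyte-like cells and at 273 CPM (223 to 330) in ependymal-like cells. Next came the pars tuberalis-like cluster (95.2 CPM) and the VLMC-like cluster of vascular and leptomeningeal cells (95.1 CPM, 78.7 to 114), where 37.8% of cells had a UMI. The VLMC-like cluster had 6 of 6 VLMC, 6 of 6 endothelial and 5 of 5 mural markers at 3 times the level in other cells or above. In OPC-like cells, the highest for Sox2, Sox9 was at 14.2 CPM (6.80 to 26.1).

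Fezf2, a zinc finger gene, was sparse, with 78 UMIs in 61 cells. Of them 67 lay in tanycyte-like cells, or 36.8 CPM (28.5 to 46.7), with 6 UMIs in ependymal-like and 4 in pars tuberalis-like cells. The tanycyte-like and ependymal-like intervals overlap (5.67 to 33.6 in the latter). Neuron-like cells had 0 Fezf2 UMIs, which allows up to 2.24 CPM, and OPC-like and erythrocyte-like cells had 0 as well, which allows up to 4.25 and 1.43 CPM.

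**Figure D2:**
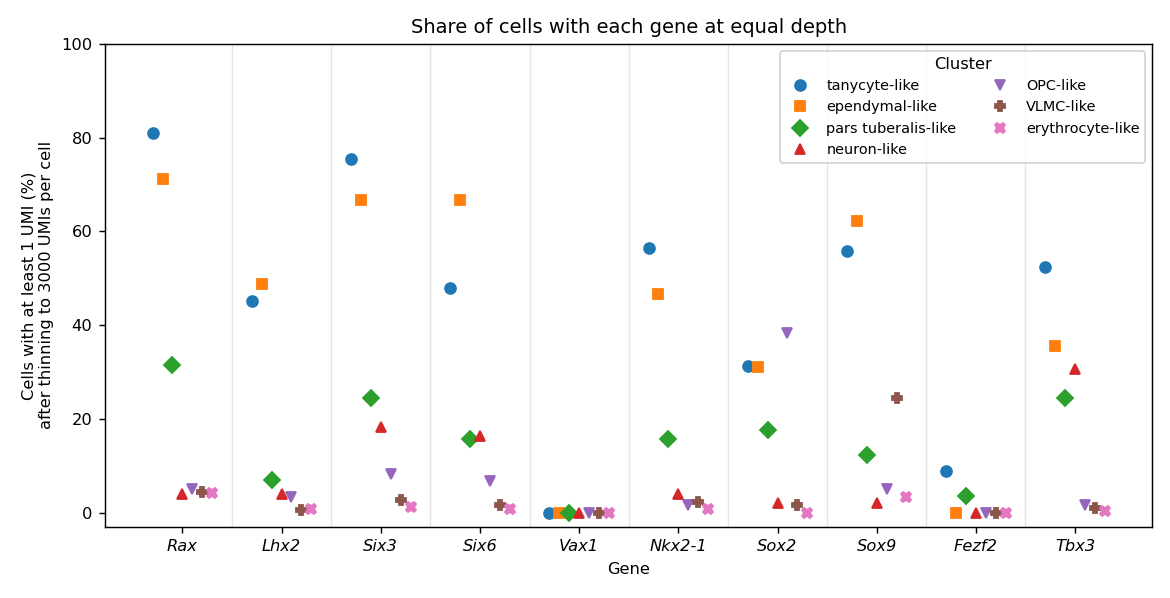
Percentage of cells with at least 1 UMI of each member after every cell was thinned to 3000 UMIs, in 7 clusters (symbols). Tanycyte-like and ependymal-like cells are the 2 highest for all members but Sox2, Vax1 and Fezf2, and erythrocyte-like cells stay at 4.15% or less.

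Members were found together in single tanycyte-like cells. A median of 7 of the 9 members with UMIs was found per cell, none of the 179 cells lacked all of them, and 160 cells, or 89.4%, carried 5 or more. Ependymal-like cells also had a median of 7, and 86.7% carried 5 or more. Elsewhere the share with 5 or more was 20.4% of neuron-like cells, 15.8% of pars tuberalis-like cells and 2.27% or less in the other clusters. At 3000 UMIs per cell it was 49.7% in tanycyte-like, 44.4% in ependymal-like, 7.02% in pars tuberalis-like and 0% in neuron-like cells. Rax and Six3 shared 156 cells, where 154.8 would be shared if the 2 genes were independent within the cluster. Most other pairs also shared more cells than so expected, such as Sox2 and Fezf2 with 39 against 30.17. A few shared fewer, such as Lhx2 and Six6 with 87 against 89.92. These counts were not thinned to equal depth. Over all 36 pairs the rank correlation of thinned counts within the cluster ran from -0.16 to 0.21, weak values in sparse counts that share the library and its depth.

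In pars tuberalis-like cells, 6 of the 57 carried at least 3 UMIs of both Scn7a and Col25a1, and these 6 held 16 of the cluster's 54 Rax UMIs. Over all 57 cells, the members ran from 14.2% (Nkx2-1) to 31.1% (Sox2) of their level in tanycyte-like cells, where Scn7a was at 12.4% and Col25a1 at 7.19%. Without the 6 cells, Rax was at 86.4 CPM (61.1 to 119), or 16.1% of its tanycyte level, and the members ran from 11% (Nkx2-1), 12.1% (Six3) and 12.4% (Fezf2, 2 UMIs) to 24.5% (Six6) and 30.4% (Tbx3). Scn7a and Col25a1 chose the cells left out, so their levels in the remaining 51, 7.89% and 3.51%, are in part set by that choice. The part of free RNA or of mixed droplets in these levels was not tested. Scrublet called 3 of the 990 cells doublets.

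At a resolution of 1.2 the 179 tanycyte-like cells split into 103 and 76 cells, and 4 members differed between them beyond counting error. Dio2 and Fndc3c1, tanycyte markers, were lower in the group of 103 (111 and 238 CPM) than in the group of 76 (197 and 435 CPM). Rax was at 665 CPM (607 to 727) in the 103 cells and at 453 CPM (414 to 495) in the 76. Six6 went the same way, at 339 CPM (298 to 384) against 161 CPM (138 to 186). Six3 and Sox9 went the other way. Six3 was at 407 CPM (362 to 457) in the 103 cells and at 639 CPM (592 to 688) in the 76, and Sox9 at 238 CPM (204 to 276) against 469.6 CPM (430 to 512). Lhx2, Nkx2-1, Sox2, Fezf2 and Tbx3 had overlapping intervals. Median depth was 6714 UMIs in the 103 cells and 12208.5 in the 76. At 3000 UMIs per cell, Six6 was found in 56.3% against 36.8% and Sox9 in 44.7% against 71.1% of cells. No member entered the clustering.

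**Figure D3:**
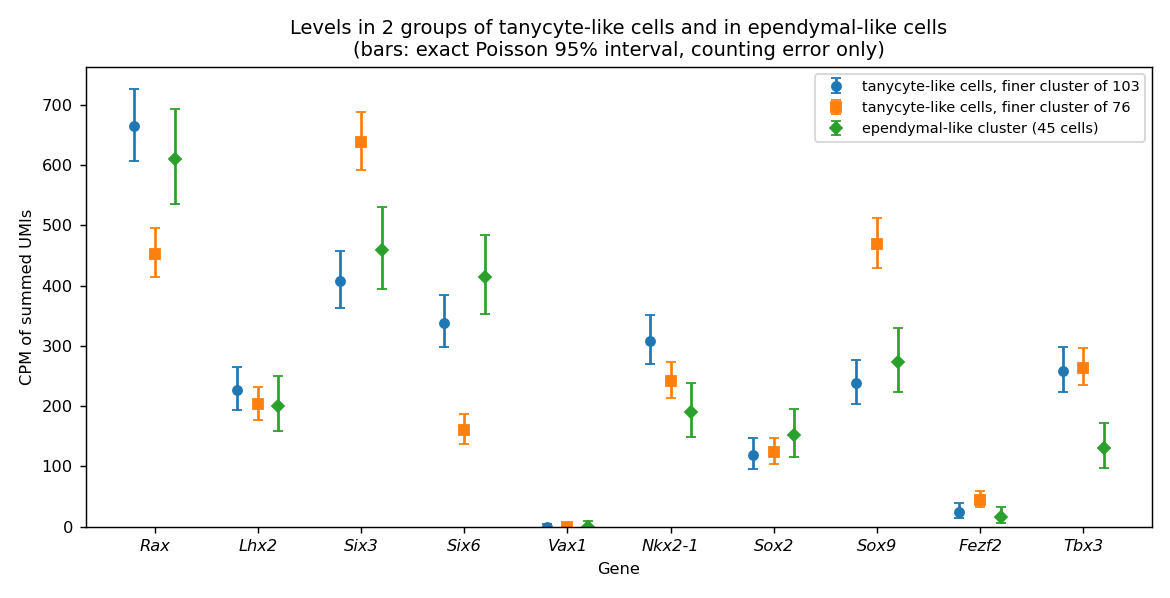
CPM of summed UMIs of each member in the 103 and 76 tanycyte-like cells that separate at a resolution of 1.2 and in 45 ependymal-like cells, with exact Poisson 95% intervals for counting error. Rax and Six6 are higher in the 103 cells, while Six3 and Sox9 are higher in the 76.

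The genes with the most similar profiles were ranked by Pearson correlation of log2(CPM + 1) over the 11 clusters, which share 1 library, among 11095 other genes with at least 50 UMIs. Six3 and Six6 were each other's first match (r = 0.985), followed for Six3 by Cacna2d2 (0.966) and 1700088E04Rik (0.965), and for Six6 by Gldc and 1700088E04Rik (both 0.957). Rax was closest to Pla2g5 (0.974), Fndc3c1 (0.973) and Tmem52 (0.972). For Lhx2 they were Lmo3 (0.975), Fam181a (0.966) and Gldc (0.966), and for Nkx2-1 Stard10 (0.944), Myom3 (0.940) and Sox1 (0.933). Sox2 was closest to Pcdh11x (0.970), Hist2h3c1 (0.960) and Rgs20 (0.953), and Sox9 to Cox4i2 (0.965), Nt5dc2 (0.963) and Gstt1 (0.961). The closest to Fezf2 were Cldn10 (0.975), Ppp1r1b (0.973) and Scn7a (0.966), and those to Tbx3 were Cntnap2 (0.990), Snph (0.982) and Slc7a4 (0.979).

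Of 57 other hypothalamic and neuroepithelial transcription factors, 45 had a UMI, and 5 of them were at least 3 times as high in tanycyte-like as in other cells. They were Sox1 (68.6 CPM, ratio 9.16), Nkx2-4 (59.3 CPM, 9.13), Otx2 (8.24 CPM, 7.39), Meis2 (72.5 CPM, 5.51) and Tbx2 (42.3 CPM, 4.96). Of 36 glial transcription factors, all had a UMI and 7 reached that ratio, led by Hes1 (1696 CPM, 9.66), Gli3 (18.7 CPM, 7.88), Nfib (435 CPM, 5.99), Id4 (84.6 CPM, 5.28) and Nfix (292 CPM, 4.22). Hes1 and Nfib are effectors of Notch signaling and of gliogenesis.

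Antisense and neighboring transcripts of the members were looked up by identifier in GENCODE M21 (GRCm38). Tbx3os1 overlaps Tbx3 on the opposite strand (chr5:119570130-119671365 and chr5:119670669-119684724, sharing 1.74% of Tbx3 exon bases). It was at 81.3 CPM in tanycyte-like cells, 15.0 CPM in neuron-like and 10.3 CPM in ependymal-like cells. Tbx3os2, a lincRNA that ends 370 bases past Tbx3 on the other strand, was at 42.3, 19.4 and 28.3 CPM in these clusters. 4930447C04Rik, which overlaps Six6 head to head (192 shared exon bases), was at 55.5 CPM in tanycyte-like, 69.5 CPM in ependymal-like and 41.9 CPM in neuron-like cells. Raxos1, antisense to 27.4% of Rax exon bases, had 10 UMIs in all, of which 2 lay in tanycyte-like, 3 in ependymal-like and 3 in erythrocyte-like cells. Six3os1 and Sox2ot, which holds Sox2 in an intron on the same strand, were not analysed here in single cells.

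The bulk libraries address how these factors differ between mutant and control ME. No member passed an adjusted p of 0.05 (edgeR quasi-likelihood test, Benjamini-Hochberg over 20466 genes). Neither did any other gene in that fit, a background of 0%. That background depends on the method: DESeq2 called 301 of the same 20466 genes, with no member among them. The study reports differentially expressed genes between these groups, and its text gives neither test nor threshold for them. DESeq2 is among the tools listed for its data. In edgeR, 1 of the 10 members, Lhx2, was higher and 0 were lower in mutants at an unadjusted p under 0.05. All genes gave 4.21% higher and 3.97% lower. In Lhx2 and Sox2 all 4 mutants lay above all 3 controls, and in 0 members all mutants lay below, where all genes gave 5.83% and 3.18%. By sign, 8 members were positive and 2 negative, with a median log2 fold change of 0.39 against 0.13 over all genes. The labels number the bulk libraries as separate mice, and in bulk tissue fewer cells of a type and less RNA per cell cannot be told apart.

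**Figure D4:**
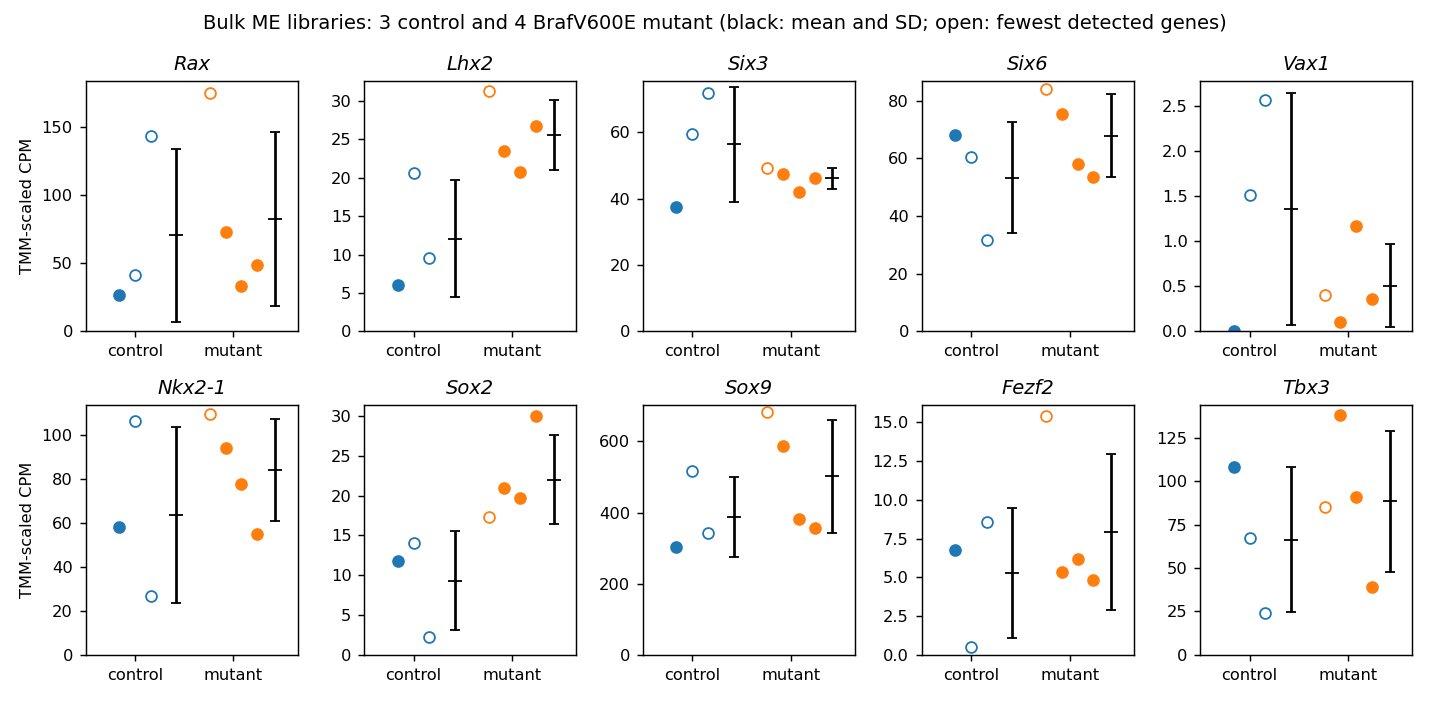
TMM-scaled CPM of each member in 3 control and 4 mutant ME libraries (points), with mean and SD in black and open points for the 3 libraries with the fewest detected genes. Lhx2 and Sox2 are the only members whose groups lie apart, and Rax is highest in an open point of each group.

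Lhx2 was at 5.99, 20.6 and 9.498 CPM in controls 1 to 3 and at 31.3, 23.4, 20.7 and 26.8 CPM in mutants 1 to 4. The highest control and the lowest mutant lay close together, and the other controls were well below all mutants. The log2 fold change was 1.08 ± 0.46 (SE, edgeR, adjusted p = 0.579). Without control 2, control 3 and mutant 1 together it was 1.98 (edgeR, adjusted p = 0.0626). Without control 1 it was 0.74 (edgeR, adjusted p = 0.293), and without control 2 it was 1.74 (edgeR, adjusted p = 0.532). Over its 18 fits the log2 fold change stayed positive, with adjusted p from 0.0626 to 0.9998.

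Sox2 was at 11.8, 14.0 and 2.22 CPM in controls and at 17.3, 20.95, 19.7 and 30.03 CPM in mutants. Control 3, the library with the fewest detected genes, was the lowest. The log2 fold change was 1.24 ± 0.58 (SE, edgeR, adjusted p = 0.629), and 0.78 (edgeR, adjusted p = 0.648) without control 3. Without the 3 libraries with few detected genes it was 0.996. With the number of detected genes as a covariate it was 0.75 ± 0.69 (SE, edgeR, unadjusted p = 0.311), the lowest of its 18 fits. OPC markers differed between the groups as well. Of 5 OPC markers, 4 were higher in mutants at an unadjusted p under 0.05, their summed level was 72.2 to 113 CPM in controls and 199 to 587 CPM in mutants, and Cspg4 and C1ql1 had 0 counts in control 3. Of 6 astrocyte markers 4 were higher in mutants and of 7 oligodendrocyte markers 6 were lower at that threshold. Their summed levels overlapped between groups. In 4 astrocyte markers all mutants lay above all controls, and in 1 oligodendrocyte marker all lay below. All genes gave 5.83% above and 3.18% below. Astrocyte markers were at 1570 to 4950 CPM in controls and 2004 to 4278 CPM in mutants. Oligodendrocyte markers were at 5944 to 18735 CPM in controls and 3711 to 7348 CPM in mutants. Summed VLMC markers were at 1184 to 2929 CPM in controls and 391 to 821 CPM in mutants. Summed endothelial markers were at 282 to 448 CPM in controls and 78.6 to 153 CPM in mutants. The part of these cell types in the levels of Sox2 and Sox9 was not tested. Mutant 4, the highest for Sox2, was also the highest for the summed OPC markers. Mutant 1, the lowest mutant for Sox2, held them at 390 CPM, above mutants 2 and 3 (199 and 212 CPM). In single cells Sox2 was at its highest in the OPC-like cluster. By protein staining, the study reports Sox2 and Sox9 enriched in the tumor center, without Olig2. It also reports more cells with both Sox2 and Olig2 in the tumor margin. The part of OPCs and of tumor cells in the bulk level of Sox2 was not tested.

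Rax was at 26.8, 40.9 and 143 CPM in controls and at 175, 72.5, 33.2 and 48.6 CPM in mutants. The groups overlapped over nearly the whole range, and the highest control and the highest mutant were both libraries with few detected genes. The log2 fold change was 0.23 ± 0.66 (SE, edgeR, adjusted p = 0.961). It was 1.32 without control 3 (edgeR, adjusted p = 0.608) and -0.42 without mutant 1 (edgeR, adjusted p = 0.876), so that single libraries set its sign and size. Without the 3 libraries with few detected genes it was 0.96 (edgeR, adjusted p = 0.397). With the number of detected genes as a covariate it was 1.68 ± 0.42 (edgeR, adjusted p = 0.634). Smart-seq2 does not mark strand, so reads of Rax and of its antisense gene Raxos1 cannot be told apart where they overlap. Raxos1 itself averaged 0.653 CPM in controls and 0.984 CPM in mutants.

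The other homeobox genes overlapped between groups, and single libraries moved several of them. Six3 was at 37.6, 59.6 and 71.9 CPM in controls and within 41.9 to 49.2 CPM in the 4 mutants, a log2 fold change of -0.29 ± 0.29 (SE, edgeR, adjusted p = 0.864). Six6 was at 67.9, 60.4 and 31.5 CPM in controls and at 84.1, 75.2, 58.1 and 53.6 CPM in mutants (0.35 ± 0.33, edgeR, adjusted p = 0.852). Nkx2-1 was at 58.3, 106 and 26.7 CPM in controls and at 110, 94.1, 77.8 and 55.2 CPM in mutants (0.40 ± 0.44, edgeR, adjusted p = 0.873), and its log2 fold change was 0.06 without control 3 and 1.004 without control 2. That of Six6 was 0.10 without control 3 and 0.54 without control 1. Without the 3 libraries with few detected genes, Six3 was at 0.27, Six6 at -0.11 and Nkx2-1 at 0.39. Control 3 was the lowest library for Six6, Nkx2-1, Sox2 and Tbx3, and the highest control for Rax and Six3. Vax1, with 0 UMIs in single cells, had 0, 17 and 30 counts in controls and 4, 1, 7 and 2 counts in mutants, or 2.57 CPM at most (-1.42 ± 1.62, edgeR, adjusted p = 0.877).

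Sox9 was the most abundant member per kilobase of exon, at 93.6 CPM per kilobase in controls on average, ahead of Nkx2-1 at 22.5, while Fezf2 and Vax1 were the lowest at 1.74 and 1.22. It was at 304, 516 and 341 CPM in controls and at 683, 588, 381 and 358 CPM in mutants (log2 fold change 0.38 ± 0.33, edgeR, adjusted p = 0.83). Without control 2 its 4 mutants lay above both remaining controls, as they did in 10.4% of all genes, and the log2 fold change was 0.67. Fezf2 was at 6.78, 0.533 and 8.56 CPM in controls and at 15.4, 5.31, 6.18 and 4.83 CPM in mutants (0.59 ± 0.87, edgeR, adjusted p = 0.913). Tbx3 was at 108, 67.1 and 24.1 CPM in controls and at 85.2, 138, 91.0 and 38.8 CPM in mutants (0.41 ± 0.52, edgeR, adjusted p = 0.890). With each library left out, Fezf2 ran from 0.05 without mutant 1 to 1.14 without control 3, and Tbx3 from 0.04 without control 3 to 0.93 without control 1. Without the 3 libraries with few detected genes, Sox9 was at 0.55, Fezf2 at -0.31 and Tbx3 at -0.25. In Fezf2 and Tbx3 the SD within each group was larger than the difference between the group means.

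**Figure D5:**
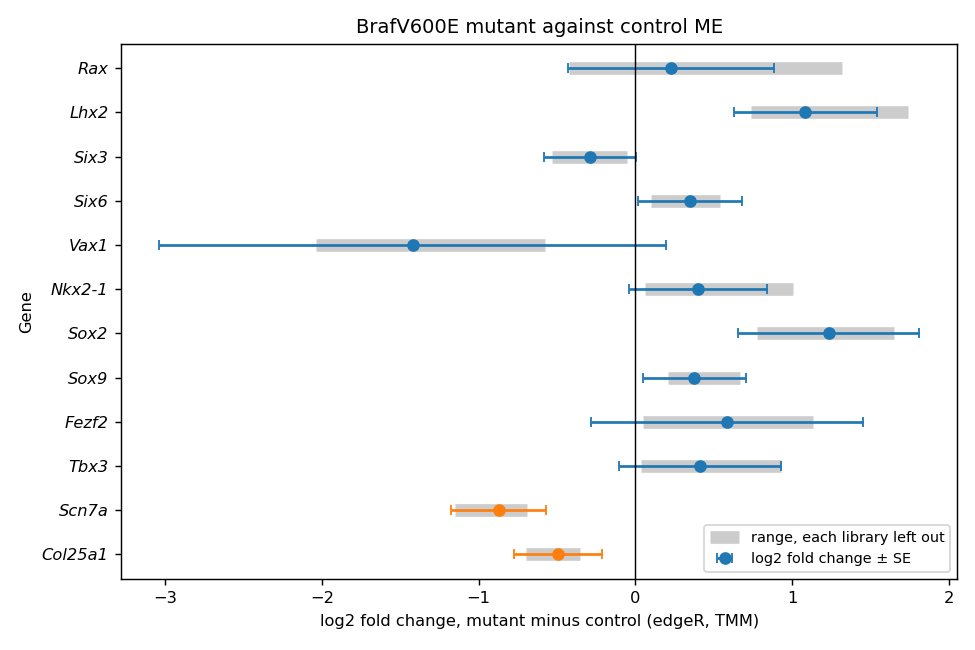
log2 fold change of mutant over control ME with its SE (points and bars) for the 10 members and, in orange, for Scn7a and Col25a1. Grey bands span the fits with each library left out in turn. Lhx2 and Sox2 lie farthest to the right, at 1.08 and 1.24, and the band of Rax crosses 0.

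The 2 genes that set the tanycytes had negative log2 fold changes, with overlapping groups. Scn7a, a sodium channel of tanycytes, was at 105, 203 and 208 CPM in controls and at 106, 104, 86.7 and 79.0 CPM in mutants (-0.87 ± 0.30, edgeR, adjusted p = 0.505). Col25a1 was at 144, 226 and 223 CPM in controls and at 169, 158, 121 and 114 CPM in mutants (-0.49 ± 0.28, edgeR, adjusted p = 0.702). Without the 3 libraries with few detected genes, Scn7a was at -0.22 and Col25a1 at -0.12, and with the number of detected genes as a covariate they were at -0.35 and -0.08. Of 11 tanycyte markers 10 were tested, and 2 were higher and 2 lower at an unadjusted p under 0.05. Their summed level was 1405 to 1899 CPM in controls and 1108 to 1859 CPM in mutants.

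Among neighboring transcripts, 8 of 12 were tested, with 0 at an unadjusted p under 0.05 in either direction. Tbx3os1 was at 5.31, 12.1 and 8.56 CPM in controls with a log2 fold change of -1.21 ± 0.64 (SE, edgeR, adjusted p = 0.673), and Tbx3os2 of -0.87 ± 0.49 (SE, edgeR, adjusted p = 0.697). Tbx3 itself was at 0.41 ± 0.52, and at -0.25 without control 2, control 3 and mutant 1, so its sign is not settled. Six3os1 had a log2 fold change of 0.11 ± 0.29 and Sox2ot of -0.15 ± 0.35 (SE, edgeR, adjusted p = 0.959 and 0.949). Reads where 2 such genes overlap could be counted for either.

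The 2 wider lists were described in the same fit. They were chosen with earlier results of these data known. The study names Dlx2, Gbx2, Foxb1 and Nkx2-2, on the hypothalamic list, and Olig1, on the glial list, as enriched in these tumors. The counts and medians of both lists are therefore a description and no independent test. Of the 57 other hypothalamic factors, 44 passed the filter, and 10 were higher and 4 lower at an unadjusted p under 0.05, 0 by adjusted p, with a median log2 fold change of 0.57. All genes gave 4.21% higher, 3.97% lower and a median of 0.13. Hesx1, a pituitary and forebrain homeobox gene, was lower in all mutants, at 0.894 CPM or less against 4.97 CPM or more (-4.28 ± 0.74, SE, edgeR, adjusted p = 0.126). Irx5 had a log2 fold change of -3.57. Dlx2 was at 0.226 CPM or less in controls and at 2.00 to 14.6 CPM in mutants, and Gsx1 at 1.87 CPM or less and at 8.85 to 25.6 CPM.

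Of the 36 glial factors 35 passed the filter, and 8 were higher and 2 lower at an unadjusted p under 0.05, 0 by adjusted p, with a median of 0.45 against the same 0.13. Rfx4, which acts in radial glia and ciliated cells, was at 15.8 to 16.5 CPM in controls and at 43.3 to 71.1 CPM in mutants (1.79 ± 0.30, SE, edgeR, adjusted p = 0.126). Npas3 had a log2 fold change of 2.98 and Olig1, which acts in OPCs, of 1.81. Nr2f2 was at -1.23 on that scale, with all mutants below all controls. Hes1 was at -1.89 and Zbtb20 at -0.44, both with overlapping groups, and Zbtb20 did not pass (edgeR, unadjusted p = 0.156). Both lists hold genes that OPCs or pituitary cells also express. Of 6 pars tuberalis markers 4 were lower in mutants at an unadjusted p under 0.05, and their part in these values was not tested.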

How the data were processed

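Single-cell values are UMI counts that the authors made with Cell Ranger (2.0.1 per the labels' processing notes) on GRCm38 and deposited unnormalized for 990 cells. The bulk values are raw read counts per gene, deposited by the authors from Smart-seq2 cDNA, and their aligner is not given in the sources used here. The members and gene lists were chosen with earlier results of these data known. Genes named are the members, Scn7a, Col25a1, neighboring transcripts, the 3 genes most similar to each member, and from the 2 lists the 5 highest tanycyte ratios and the 3 smallest p in each direction, some of which are not reported here. The markers Cspg4, C1ql1 and Dio2 were named after their values were seen.

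Clustering of log-normalized cells used Seurat 5.3.0 and the limits on mean and dispersion of the study's methods. Of 4844 variable genes, 4797 remained without the members and lists. A cluster was called after a type where at least 3 of its markers reached 3 times the CPM of other cells. One cluster of 23 cells stayed unnamed. Doublets, called with Scrublet in scanpy 1.11.5, were kept. Cells carried a median of 7832 UMIs, and barcodes were unique.

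Bulk counts were tested in edgeR 4.0.16 (TMM, filterByExpr, robust quasi-likelihood, no covariate, legacy method). The test was checked on simulated counts with known changes. Other settings used DESeq2 1.42.0, limma 3.58.1, other scalings and filters, a replicate block and left-out libraries. Promoter windows come from RefSeq and were read for 7 members, without Rax, Sox9 and Tbx3.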

Additional observations from a re-analysis of the deposited data

Results flagged for a closer look

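Of 32 genes named in bulk and tested, 3 had a mutant library far from the other 3 by Dixon's rule, which chance gives for about 1 in 20 groups. Fezf2 was at 15.4 CPM in mutant 1, and the next highest mutant was at 6.18 CPM. Hes1 was at 38.2 CPM in mutant 1 against 9.07 CPM in the next highest. Mutant 1 is the mutant library with the fewest detected genes, and the part of this in both values was not tested. Npas3 was at 40.4 CPM in mutant 4 against 26.8 CPM in the next highest.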

How the results depend on the processing

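Over all genes the count at an adjusted p under 0.05 was 0 in edgeR, and limma-voom and the replicate block also gave 0. It was 301 with DESeq2, 5 with upper-quartile scaling, 1 with library sizes alone, 233 without a filter, 13 with at least 10 counts in every library, 1 with the number of detected genes as a covariate, 240 without control 2, control 3 and mutant 1, and 25 with edgeR's later method, added after seeing the data. DESeq2 gave no adjusted p for 547 genes. With each library left out it ranged from 0 to 42 (42 without control 1 and 21 without control 3), and 1675 genes had an unadjusted p under 0.05. No member passed in any of these fits. By unadjusted p, 1 of 10 passed in the reported fit, and 0 to 3 did over the 18 fits: Lhx2 in 12 of them, Sox2 in 6 (DESeq2 and limma-voom among them), Rax in 2 and Sox9 in 1. The background of all genes moved as well. With the number of detected genes as a covariate, where 3 members passed, 562 genes were higher and 557 lower of 20466. In limma-voom, where 2 members passed, 1677 were higher and 633 lower of 20466. Without control 1, where 0 members passed, 5253 were higher and 1801 lower of 23560. The median log2 fold change of all genes was 0.13, and ran from -0.01 with at least 10 counts in every library to 0.59 without a filter (0.25 with library sizes alone, 0.43 without control 1). Libraries of the same number did not deviate together (r = -0.40, -0.01 and -0.18), so the replicate block is 1 setting among others. It gave Lhx2 a log2 fold change of 1.22 and Sox2 one of 1.36 (edgeR, adjusted p = 0.9998 for both).

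Of 200 refitted log2 fold changes of the members, Scn7a and Col25a1, 8 reversed. Without control 2, control 3 and mutant 1, Six3 was at 0.27, Six6 at -0.11, Fezf2 at -0.31 and Tbx3 at -0.25. With detected genes as a covariate, Six3 was at 0.13 and Vax1 at 0.34. With each library left out, Rax ranged from -0.42 to 1.32, reversing at -0.17 without control 1 and at -0.42 without mutant 1. Members with mutants all above controls numbered 2 or 3 with each library left out, and those all below 0 to 2, Six3 and Vax1 without control 1, where 21.4% of all genes lay above and 11.8% below.

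The number of members with a tanycyte interval above the next cluster was 3. It was 8 at a resolution of 0.4, with all variable genes or with ependymal-like cells added (not planned). The cells counted as tanycytes then numbered 227, 226 and 224, against 179 in the reported setting. With 10 components they numbered 212, and the number of members was 4. With all variable genes the members were not left out of the clustering. The number of members was 0 with cells chosen by at least 3 UMIs of both markers. It was 1 with cells thinned to 3000 UMIs, which holds fewer UMIs. The 0 came from a comparison with clusters that still held the tanycyte-like and ependymal-like cells not chosen, so it says little about the members. A mean over cells gives no such interval. In tanycyte clusters, 15 of 100 levels left their counting interval. With thinning, Rax was at 590 CPM, Six3 at 501, Six6 at 270.02 and Sox9 at 309 CPM. As a mean over cells, Six3 was at 479, Six6 at 261 and Sox9 at 326 CPM. Six6 was at 263.7 CPM at a resolution of 0.4, 265.6 with 10 components, 263.3 with all variable genes and 263.9 with ependymal-like cells. Tbx3 was at 237.2 CPM at a resolution of 0.4, 237.3 with 10 components, 237.7 with all variable genes and 238 with cells chosen by both markers. The cause of these shifts was not tested.

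Depth limits the sparse genes most. In tanycyte-like cells 3 UMIs are 1.647 CPM, and 3 counts in a bulk library are 0.257 to 0.536 CPM. Clusters come from 1 library of pooled mice, so intervals hold no spread between mice. Bulk counts carry no molecular identifiers, and 3 against 4 libraries with unequal numbers of detected genes leave wide errors.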
